A study of Mus musculus with 4 samples.

Results

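The 9 CC chemokine genes Ccl2, Ccl5, Ccl7, Ccl8, Ccl11, Ccl17, Ccl19, Ccl20 and Ccl25 were described in mouse embryonic fibroblasts with and without podoplanin. They were chosen by gene symbol from the platform annotation, with the brightest probe set kept for each symbol, and all 9 were among the 19751 genes measured. The fibroblasts were Pdpn KO (genotype Pdpn-/-, 2 arrays) or WT (2 arrays), all of the strain given as C57BL6/J and untreated. They were grown in 10% fetal calf serum for 7 to 10 days from embryos taken between embryonic days 9.5 and 13.5, and cells bearing CD31 (endothelium) or CD45 (blood cells) were removed magnetically. Pdpn was missing from the whole embryo rather than from a single cell type, as far as the genotype label says. Which embryos or litters each culture came from is not given in the sources used here.

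CC chemokines are small secreted proteins with a pair of adjacent cysteines near the amino terminus. They bind G protein-coupled receptors of the CCR family on leukocytes, and are held on heparan sulfate of cell surfaces and matrix, where they guide migration. Fibroblasts are a known source of the monocyte attractants Ccl2 and Ccl7 and of the eosinophil attractant Ccl11, mostly after signals of TNF, IL-1 or IL-4. In lymph nodes, the podoplanin-bearing fibroblastic reticular cells secrete Ccl19 and Ccl21, which draw T cells and dendritic cells through Ccr7. Embryonic fibroblasts in culture are a model of fibroblasts in general and not of that reticular network.

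The label checks separated the arrays in one respect besides genotype. Pdpn read 179 and 201 RMA intensity units in Pdpn KO, against 4486 and 3106 in WT. RMA summarises probe sets after quantile normalisation, and its values were deposited here on a linear scale. All arrays are labelled female, yet Y-linked Eif2s3y read 1673 in Pdpn KO replicate 1 and 35.1 in Pdpn KO replicate 2, against 1534 and 1474 in WT, while Xist read 48.9 and 1831 in Pdpn KO replicates 1 and 2, against 48.6 and 57.4 in WT. So 3 arrays went against the sex label, and Pdpn KO replicate 2 was the 1 array with a female pattern; values without it are given below. Of 11 fibroblast markers, Vim, an intermediate filament gene, was the brightest, at 17537 and 17684 in Pdpn KO, against 17995 and 18278 in WT, and Fn1, fibronectin, read 15549 and 13867 in Pdpn KO, against 15921 and 15045 in WT. The dimmest of the 11, the proteoglycan gene Lum, lay between 47.6 and 122. The genes of the proteins used for depletion were low: Ptprc (CD45) lay between 80.6 and 94.9 and Pecam1 (CD31) between 121 and 154 over the 4 arrays, where the lower quartile of all genes was 110 to 122. RMA leaves no value at 0, so no marker could be called absent.

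No CC chemokine passed the threshold between the genotypes. Of the 9, 5 had a higher mean in Pdpn KO, against 51.7% of all genes, and 4 a lower mean. At a limma adjusted p under 0.05 there were 0 of the 9, against 0.0101% of all genes. At an unadjusted p under 0.05 the count was also 0 of 9, against 2.01% of all genes. The median log2 difference over the 9, Pdpn KO minus WT, was 0.07, and over all genes it was 0.00. The adjusted p was 1.00 for each of the 9 (limma, Benjamini-Hochberg over all genes), and their standard errors ran from 0.11 to 0.34 on the log2 scale, against a median of 0.13 over all genes. This fit takes no account of the replicate numbers, and a fit with them as a block is given at the end. With 2 arrays per genotype and no block, no single chemokine's difference could be told from the spread between arrays. The p-values measure only that spread, which may be in part technical.

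Among the monocyte chemoattractants, Ccl2 and Ccl7, which lie next to each other in RefSeq's gene order on chromosome 11, were highest in the same Pdpn KO array. Ccl2 (MCP-1), which attracts monocytes through Ccr2, read 1024 and 2131 in Pdpn KO, against 977 and 1295 in WT (probe set 10379511, chromosome 11). Ccl7 (MCP-3), which also acts through Ccr2, read 645 and 1199 in Pdpn KO, against 470 and 711 in WT (probe set 10379518, chromosome 11, band C). For both genes Pdpn KO replicate 2 was the highest array and WT replicate 1 the lowest, and the genotypes overlapped, because WT replicate 2 read more than Pdpn KO replicate 1.

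The mean difference, Pdpn KO minus WT, was 0.39 ± 0.34 on the log2 scale for Ccl2 (SE, n = 2 per genotype; 95% interval from -0.42 to 1.20; limma adjusted p = 1.00). For Ccl7 it was 0.60 ± 0.32 (95% interval from -0.17 to 1.38; limma adjusted p = 1.00), a 1.52-fold higher geometric mean in Pdpn KO with an interval from 0.889-fold to 2.60-fold. Both values depended on which Pdpn KO array was read. Without Pdpn KO replicate 1, which leaves the Pdpn KO array with the female pattern, Ccl2 had 0.92 and Ccl7 1.05. That fit rests on 1 Pdpn KO array and holds no spread within Pdpn KO. Neither WT array had the female pattern, so genotype and that pattern cannot be told apart in it. Without Pdpn KO replicate 2, which also leaves 1 Pdpn KO array, Ccl2 had -0.14 and Ccl7 0.16.

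Of the other chemokine genes on chromosome 11, Ccl5 had the same order of arrays with smaller gaps, and Ccl11 and Ccl8 did not. Ccl11 (eotaxin), which attracts eosinophils through Ccr3 and follows Ccl7 in gene order, read 158 and 204 in Pdpn KO, against 181 and 220 in WT (log2 difference -0.15 ± 0.17, SE; limma adjusted p = 1.00). Ccl8, which in the mouse binds Ccr8, read 72.2 and 71.9 in Pdpn KO, against 76.6 and 78.7 in WT, below the lower quartile of genes on every array. Its groups did not overlap, with both Pdpn KO arrays lower, but the difference was -0.11 ± 0.11 (SE; limma adjusted p = 1.00), and RMA compresses differences at such low levels. Between Ccl11 and Ccl8 in gene order lies Ccl12, another Ccr2 ligand, which read 41.1 and 42.5 in Pdpn KO, against 42.1 and 47.2 in WT. Ccl5 (RANTES), which attracts T cells and monocytes and lies farther along chromosome 11, read 282 and 353 in Pdpn KO, against 272 and 332 in WT, again with Pdpn KO replicate 2 highest and WT replicate 1 lowest. Its difference was 0.07 ± 0.16 (SE; limma adjusted p = 1.00), with a 95% interval from 0.800-fold to 1.37-fold, so changes within that range could not be told from none.

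**Figure D1:**
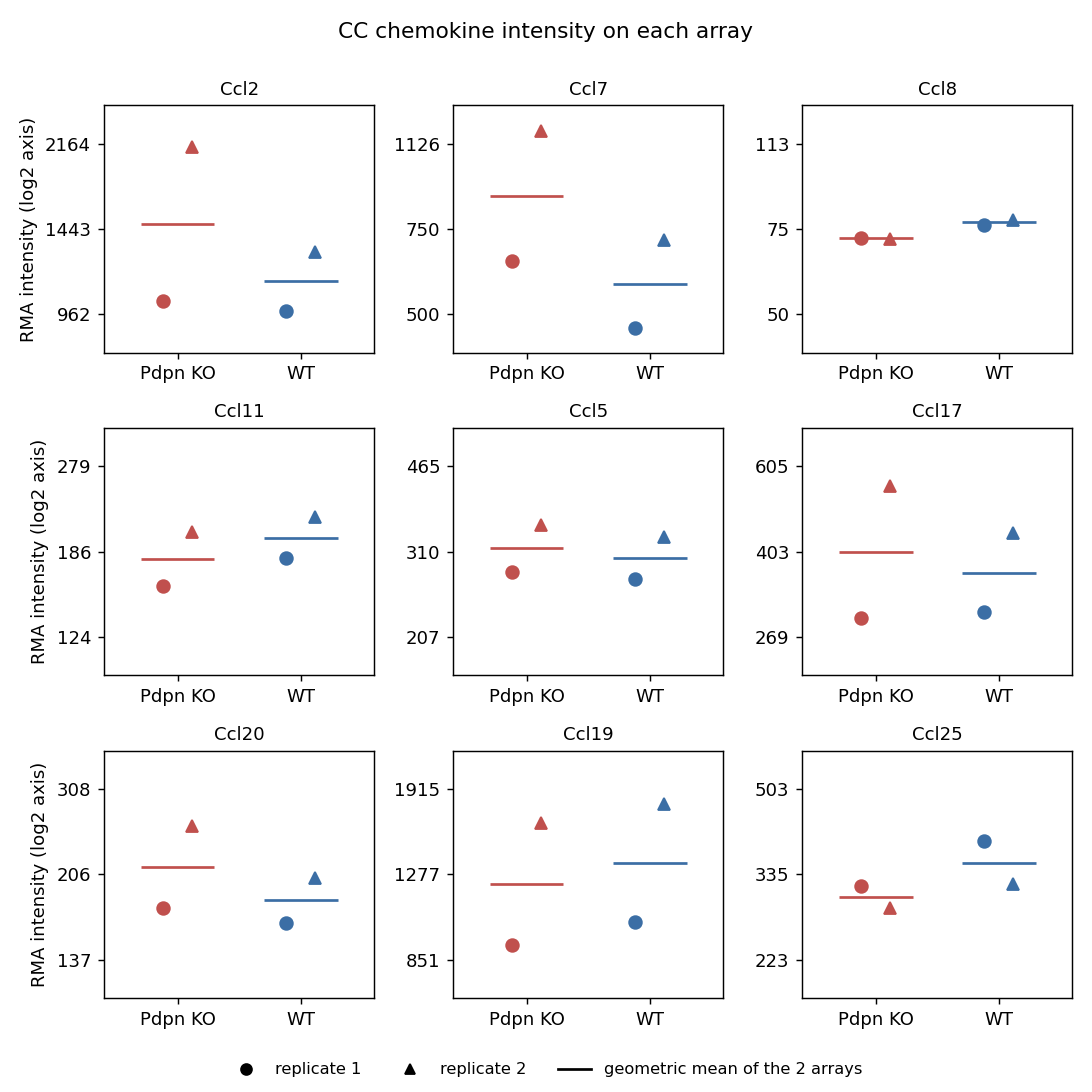
RMA intensity (log2 axis, each panel spanning the same fold range) of each of the 9 CC chemokines in Pdpn KO and WT fibroblasts; circles are replicate 1, triangles replicate 2 and lines the geometric mean of the 2 arrays. In 7 of the 9 panels replicate 2 lies above replicate 1 in both genotypes, and only Ccl8 and Ccl25 have groups that do not overlap.

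Ccl17 and Ccl20 were also highest in Pdpn KO replicate 2, ahead of WT replicate 2. Ccl17 (TARC), which attracts Ccr4-bearing T cells, read 295 and 552 in Pdpn KO, against 302 and 440 in WT (log2 difference 0.14 ± 0.32, SE; limma adjusted p = 1.00). Ccl20, the ligand of Ccr6 on dendritic and Th17 cells, read 175 and 259 in Pdpn KO, against 163 and 203 in WT (0.23 ± 0.21, SE; limma adjusted p = 1.00). For both genes the replicates 2 read higher than the replicates 1 and the genotypes overlapped. When Pdpn KO replicate 1 was left out, Ccl17 had 0.60 and Ccl20 0.51. When instead Pdpn KO replicate 2 was left out, they had -0.31 and -0.05.

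RefSeq promoter windows (GRCm38.p6) matched 5 of the 9 members, and the 250 bases before the start are shown for Ccl20, Ccl17 and Ccl19, all higher in replicate 2 of both genotypes, and for Ccl8, which hardly varied. Capitals mark matches on either strand to the kappa B motif of NF-kB, to the AP-1 motif TGANTCA or to the STAT6 motif TTCNNNNGAA, and no 2 matches overlapped.
Ccl20, chr1:83116516-83116765, plus strand: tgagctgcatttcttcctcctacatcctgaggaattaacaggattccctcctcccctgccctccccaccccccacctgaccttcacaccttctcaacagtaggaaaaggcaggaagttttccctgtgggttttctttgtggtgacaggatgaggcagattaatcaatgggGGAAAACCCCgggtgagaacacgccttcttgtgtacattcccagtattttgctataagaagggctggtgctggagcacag
Ccl17, chr8:94810203-94810452, plus strand: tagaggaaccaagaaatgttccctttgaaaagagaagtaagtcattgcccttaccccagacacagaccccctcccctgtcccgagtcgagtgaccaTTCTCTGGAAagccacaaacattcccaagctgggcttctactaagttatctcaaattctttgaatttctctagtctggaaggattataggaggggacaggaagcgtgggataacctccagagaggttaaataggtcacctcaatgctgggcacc
Ccl19, chr4:42756366-42756615, minus strand: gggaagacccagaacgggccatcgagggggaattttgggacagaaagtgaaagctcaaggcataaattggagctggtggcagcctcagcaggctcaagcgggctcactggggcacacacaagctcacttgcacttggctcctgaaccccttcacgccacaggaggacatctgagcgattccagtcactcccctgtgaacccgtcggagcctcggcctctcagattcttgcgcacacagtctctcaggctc
Ccl8, chr11:82114935-82115184, plus strand: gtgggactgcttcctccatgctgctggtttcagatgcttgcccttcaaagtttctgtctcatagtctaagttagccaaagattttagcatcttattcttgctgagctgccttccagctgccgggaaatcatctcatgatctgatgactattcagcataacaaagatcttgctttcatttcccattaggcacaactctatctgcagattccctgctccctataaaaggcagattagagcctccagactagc
The Ccl20 window held 1 kappa B match, starting 80 bases before the start, a motif present in 7.25% of all 32851 windows of this length. The Ccl17 window held 1 STAT6 match, starting 154 bases before the start, a motif present in 5.85% of windows. The AP-1 motif, present in 6.75% of windows, was in none of the 6 windows of the 5 members. The windows of Ccl19 and Ccl8 and the 2 of Ccl25 held none of the 3 motifs. The SD of log2 intensity over the 4 arrays was 0.29 for Ccl20 and 0.44 for Ccl17. For the genes without a match it was 0.48 for Ccl19, 0.19 for Ccl25 and 0.064 for Ccl8. A link between motifs and spread was not tested. A match is a description of letters, not of a bound site.

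Ccl19 and Ccl25, the members best known from lymphoid stroma and thymus or gut, had several probe sets each. Ccl19, the Ccr7 ligand of T cell zones, read 913 and 1634 in Pdpn KO, against 1019 and 1787 in WT by its brightest probe set (10512322, chromosome 4, band A5; log2 difference -0.14 ± 0.34, SE; limma adjusted p = 1.00). Replicate 2 was higher than replicate 1 by 1.79-fold in Pdpn KO and by 1.75-fold in WT, so the 2 arrays of a genotype differed far more than the genotypes. The other 3 probe sets annotated to Ccl19 did not repeat a gap of that size in both genotypes. Probe set 10504188 read 455 and 671 in Pdpn KO, against 658 and 665 in WT, and 10512372 read 154 and 168 in Pdpn KO, against 137 and 171 in WT.

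The dimmest Ccl19 probe set, 10504132, read 69.4 and 75.4 in Pdpn KO, against 96.6 and 103 in WT, with no overlap. Its log2 difference was -0.46 ± 0.11 (SE; unadjusted p = 0.00671; limma adjusted p = 1.00 over all 24679 probe sets). The 4 probe sets thus ran from -0.46 to 0.08. RefSeq lists 3 Ccl19 pseudogenes, and all 4 probe sets cite the same Ccl19 transcript, so which copy each one reads is uncertain. Ccl25 (TECK), the Ccr9 ligand of thymus and small intestine, read 318 and 286 in Pdpn KO, against 393 and 320 in WT by its brightest probe set (10569958, chromosome 8). Both Pdpn KO arrays were lower than both WT arrays, but the difference of -0.23 ± 0.14 did not pass (SE; limma adjusted p = 1.00), and the other probe set, 10569962, overlapped, with 252 and 225 in Pdpn KO, against 271 and 230 in WT. Of the 9 genes, 2 (Ccl8 and Ccl25) had both Pdpn KO arrays below both WT arrays, against 9.74% of all genes, and 0 had both above, against 14.6%.

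**Figure D2:**
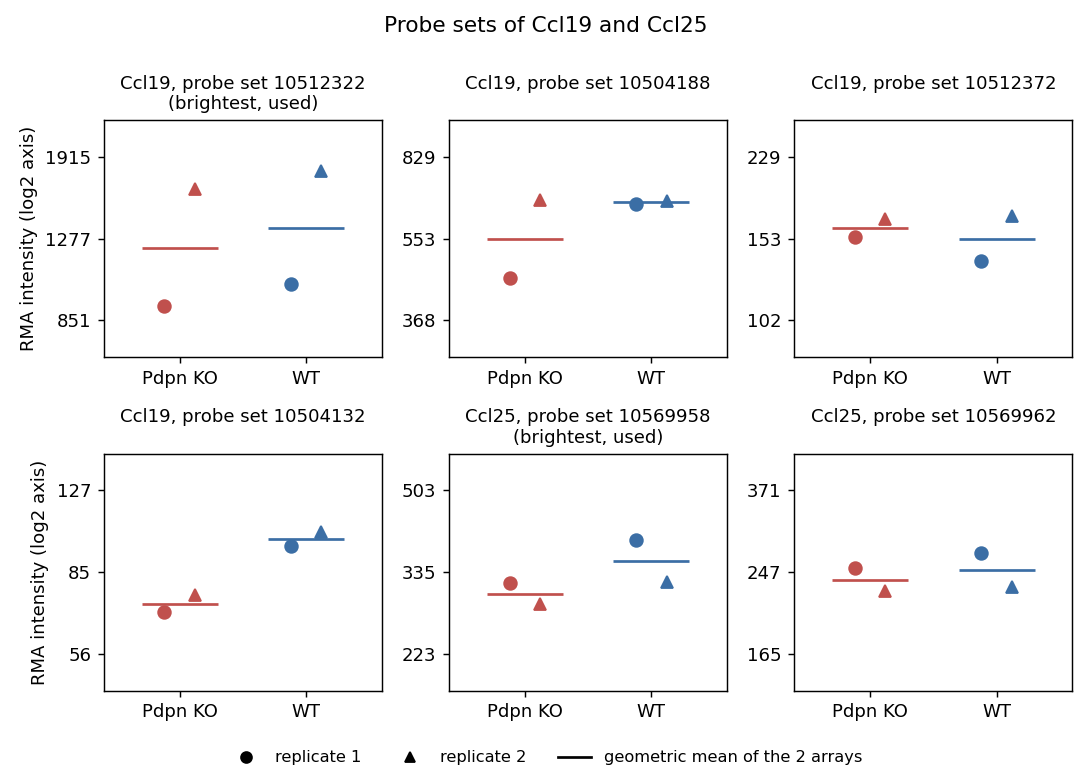
RMA intensity (log2 axis, equal fold range in each panel) of the 4 probe sets of Ccl19 and the 2 of Ccl25 in Pdpn KO and WT; circles are replicate 1, triangles replicate 2 and lines geometric means. The brightest Ccl19 probe set separates the replicates in both genotypes, whereas the dimmest, at 69.4 and 75.4 in Pdpn KO and 96.6 and 103 in WT, separates the genotypes.

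The clearest shared feature of the chemokines was a difference between the replicates of each genotype. Replicate 2 was higher than replicate 1 in both genotypes for 7 of the 9, against 41.3% of all genes, and lower in both for Ccl25 alone, against 32.4%. Pdpn KO replicate 2 was the highest of the 4 arrays for 5 of the 9 (Ccl2, Ccl5, Ccl7, Ccl17 and Ccl20), against 26.1% of all genes. The median log2 difference, replicate 2 minus replicate 1, was 0.56 in Pdpn KO and 0.31 in WT over the 9, and 0.03 in Pdpn KO and 0.02 in WT over all genes. In Pdpn KO, 4 of the 9 (Ccl2, Ccl7, Ccl17 and Ccl19) were over 1.5-fold higher in replicate 2, against 0.765% of all genes. These values describe single arrays and carry no test, and no label tells what 2 arrays with 1 number have in common. In Pdpn KO, replicate 2 also differed from replicate 1 in sex pattern.

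The gap between the 2 arrays of a genotype was larger in Pdpn KO for 7 of the 9 and larger in WT for 2. The matching share of all genes was not computed, so the count cannot be called particular to the chemokines. Ccl2 differed by 2.08-fold between the Pdpn KO arrays and by 1.33-fold between the WT arrays, and Ccl17 by 1.88-fold in Pdpn KO and 1.46-fold in WT. For Ccl19 the gaps were nearly equal, at 1.79-fold in Pdpn KO and 1.75-fold in WT. The 2 with the larger gap in WT were Ccl25, with a log2 difference of replicate 2 minus replicate 1 of -0.15 in Pdpn KO and -0.30 in WT, and Ccl8, with -0.0052 in Pdpn KO and 0.040 in WT. Whether the spread differed between the genotypes was not tested. The Pdpn KO arrays differed in sex pattern and the WT arrays did not, so genotype and that pattern cannot be told apart in these gaps.

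**Figure D3:**
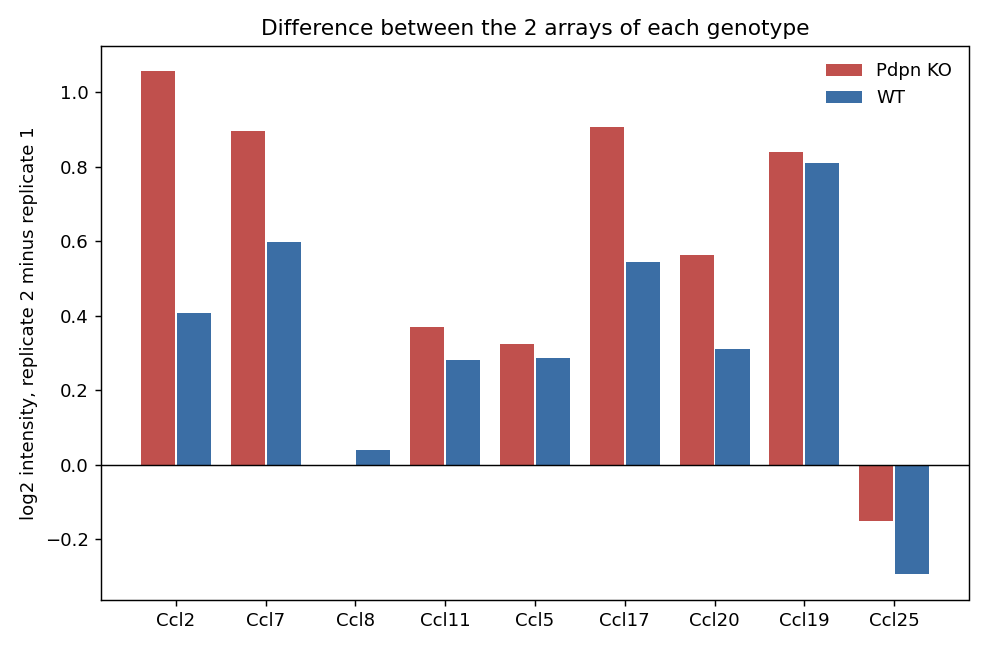
Difference in log2 intensity between replicate 2 and replicate 1 of Pdpn KO (red) and WT (blue) for each CC chemokine; bars start at 0 and each rests on 2 arrays. The bars of both genotypes are positive for 7 of the 9, from 0.28 in WT for Ccl11 to 1.06 in Pdpn KO for Ccl2, and both are negative for Ccl25.

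Among the cell type markers, those of fibroblasts were most often higher in replicate 2 of both genotypes. The summed intensity of 11 fibroblast markers was 53389 and 59362 in Pdpn KO replicates 1 and 2, against 53748 and 61458 in WT. Of the 11, 9 were higher in replicate 2 in both genotypes, against 41.3% of all genes. Col1a1, a type I collagen chain chosen after its values were seen, read 5799 and 8334 in Pdpn KO, against 5895 and 8938 in WT. Of 12 macrophage and blood cell markers, 7 were higher in replicate 2 in both genotypes, against 41.3% of all genes. Only 1, Cd68, was lower in both, against 32.4% of all genes. Cd68, a lysosomal protein of macrophages, read 672 and 394 in Pdpn KO, against 600 and 377 in WT. The sum over the 12 was 1996 and 1800 in Pdpn KO, against 1890 and 1734 in WT, and without Cd68 it was 1324 and 1405 in Pdpn KO, against 1291 and 1357 in WT. Cd14, a monocyte receptor, read 220 and 223 in Pdpn KO, against 207 and 192 in WT.

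Over 11 endothelial markers the sum, which includes Emcn, was 2117 and 2124 in Pdpn KO, against 2451 and 2245 in WT. By mean, 5 of the 11 were higher in Pdpn KO and 6 lower, with a median log2 difference of -0.02. In both genotypes, 5 of the 11 were higher in replicate 2, against 41.3% of all genes. Emcn, an endothelial sialomucin, read 196 and 177 in Pdpn KO, against 459 and 351 in WT (log2 difference -1.11 ± 0.16, SE; limma adjusted p = 0.570), while Egfl7 and Kdr, both of endothelium, had 0.00 ± 0.11 and -0.09 ± 0.30 (SE). Over 8 epithelial markers the sum was 1798 and 2009 in Pdpn KO, against 2007 and 2123 in WT. Of the 8, 5 were higher in replicate 2 in both genotypes, against 41.3% of all genes. Of these 4 marker lists 0 genes passed in limma, and 1, Emcn, had an unadjusted p under 0.05, against 2.01% of all genes. The keratin genes Krt18 and Krt8 had log2 differences of -0.22 ± 0.11 and -0.08 ± 0.12 (SE). The part of these markers in the chemokine values was not tested. In such bulk samples, fewer cells of a type and less RNA per cell cannot be told apart.

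Of the 9, Ccl7 varied most over the 4 arrays, and the genes with the pattern most like it, by Euclidean distance between centred log2 values over the 4 arrays, were Lum, Ednrb and Atp8b1. Lum, the matrix proteoglycan lumican, read 69.1 and 122 in Pdpn KO, against 47.6 and 69.4 in WT, at a distance of 0.10 log2 units. Ednrb, an endothelin receptor, read 144 and 275 in Pdpn KO, against 115 and 160 in WT (distance 0.11), and Atp8b1, a phospholipid flippase, 100 and 178 in Pdpn KO, against 80.5 and 112 in WT (distance 0.15). Ccl2 ranked 12 among all other genes by this measure, Ccl17 ranked 78 and Ccl20 98, while Ccl25 ranked 18683. With 4 arrays this likeness is only a description.

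**Figure D4:**
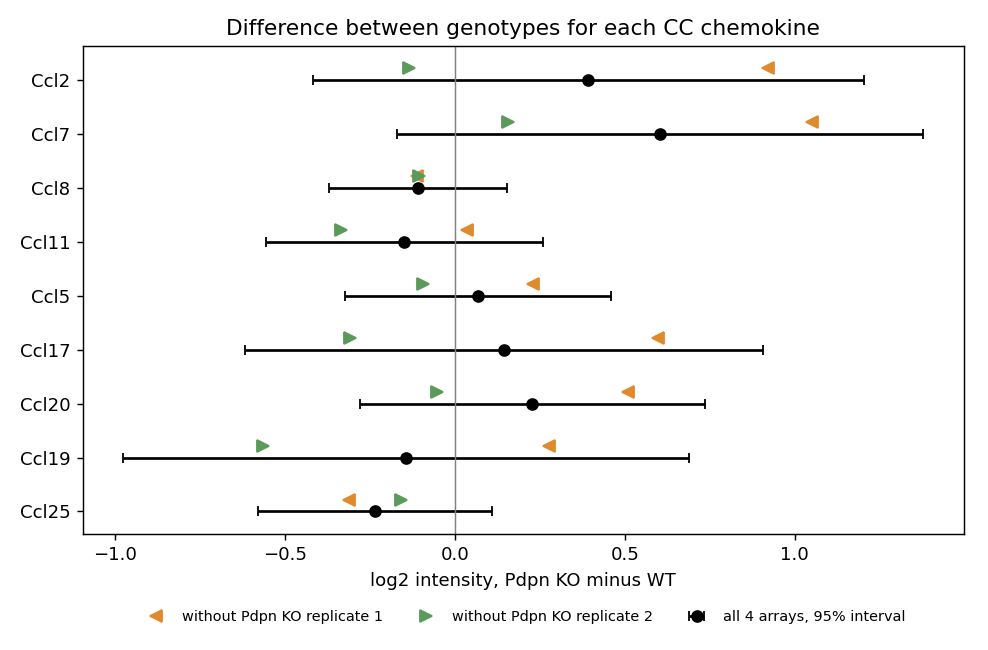
Log2 intensity difference, Pdpn KO minus WT, of each CC chemokine with all 4 arrays (black points, 95% interval from limma) and with either Pdpn KO array left out (triangles). Each black interval includes 0, and for Ccl2 the value is 0.92 with Pdpn KO replicate 1 left out and -0.14 with Pdpn KO replicate 2 left out.

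The receptors and remaining ligands of the family read below the median of each array, which was 305 to 317 over all genes, and none passed the threshold. Of 13 measured CC chemokine receptors and atypical receptors, 0 passed in limma and 0 had an unadjusted p under 0.05, against 2.01% of all genes. Their median log2 difference was 0.04. All 13 lay between 29.9 and 255 on every array. Ccr7, the receptor of Ccl19, read 210 and 252 in Pdpn KO, against 194 and 255 in WT, and Ccr2, the receptor of Ccl2 and Ccl7, read 29.9 and 35.6 in Pdpn KO, against 34.4 and 33.7 in WT. Ccr9, the receptor of Ccl25, read 49.5 and 57.7 in Pdpn KO, against 68.6 and 61.7 in WT (log2 difference -0.28 ± 0.13, SE; limma adjusted p = 1.00). Of 10 other CC ligands, 0 passed in limma and 0 had an unadjusted p under 0.05, against 2.01% of all genes, with a median of -0.08. The highest mean difference among them was that of Ccl9, at 257 and 290 in Pdpn KO, against 235 and 281 in WT (0.09 ± 0.14, SE). The Ccl21 and Ccl27 genes share probe sets with several copies and were not named.

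No gene of the pathways that act upstream of CC chemokines passed the threshold. Of 25 measured genes of the TNF, IL-1 and NF-kB pathway, 0 passed in limma. An unadjusted p under 0.05 was found for 1 of the 25, against 2.01% of all genes. This was Tnfrsf1b, a receptor for TNF, lower at 506 and 442 in Pdpn KO, against 900 and 1021 in WT (log2 difference -1.02 ± 0.13, SE, limma adjusted p = 0.425). The other TNF receptor, Tnfrsf1a, read 3166 and 3128 in Pdpn KO, against 2489 and 2859 in WT, and Rela, an NF-kB subunit, 3116 and 2785 in Pdpn KO, against 2976 and 2754 in WT. Myd88, the adaptor of the IL-1 receptor, had a log2 difference of 0.25 ± 0.11 (SE; limma adjusted p = 1.00). The median over the 25 was 0.07.

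Of 8 genes of IL-4 and IL-13 receptors and STAT6 signalling, 0 passed and 1 had an unadjusted p under 0.05, against 2.01% of all genes. This was Il4ra, the IL-4 receptor chain, with 2840 and 2684 in Pdpn KO, against 1830 and 2289 in WT, both Pdpn KO arrays being higher (log2 difference 0.43 ± 0.14, SE; limma adjusted p = 1.00). Il13ra1 read 1352 and 2138 in Pdpn KO, against 651 and 1504 in WT (0.78 ± 0.40, SE; limma adjusted p = 1.00), higher in replicate 2 of each genotype. Jak1, a kinase of these receptors, had 0.06 ± 0.11 (SE). Of 13 interferon response genes, 0 passed in limma and 0 had an unadjusted p under 0.05, against 2.01% of all genes. Their median was 0.14, with Ifit3 at 0.50 ± 0.29, Oasl2 at 0.17 ± 0.12, Irf3 at 0.16 ± 0.11 and Stat2 at -0.06 ± 0.16 (SE).

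Outside Pdpn itself, lymphoid stroma markers and genes that hold or trim chemokines outside the cell did not pass. Of 13 stroma markers 1 passed, lower, and it was Pdpn. Pdpn and Cxcl12, 2 of the 13, had an unadjusted p under 0.05, against 2.01% of all genes. Cxcl12, the CXC chemokine of reticular stroma, read 2909 and 2239 in Pdpn KO, against 3491 and 3783 in WT (log2 difference -0.51 ± 0.15, SE; limma adjusted p = 1.00), with both Pdpn KO arrays lower. Thy1, a fibroblast surface protein, read 3074 and 4509 in Pdpn KO, against 3652 and 4061 in WT, and Pdgfrb, a growth factor receptor of mesenchyme, 2698 and 3883 in Pdpn KO, against 2327 and 3875 in WT. Another list held 13 genes of heparan sulfate proteoglycans, their synthesis and the chemokine-cleaving peptidase Dpp4. Of these 13, 0 passed and 1 had an unadjusted p under 0.05, against 2.01% of all genes. This was Hs6st1, a heparan sulfate sulfotransferase, with 959 and 992 in Pdpn KO, against 759 and 796 in WT (0.33 ± 0.11, SE, limma adjusted p = 1.00). Hspg2, perlecan, read 5519 and 3742 in Pdpn KO, against 5621 and 4403 in WT. The glypican gene Gpc3 had a log2 difference of 0.60 ± 0.37 and the syndecan gene Sdc3 -0.06 ± 0.11 (SE; limma adjusted p = 1.00 for each).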

How the data were processed

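Total RNA of cultured fibroblasts was read on 4 Affymetrix gene arrays of the 1-colour type. The authors deposited linear-scale RMA intensity for each probe set (the method is from the submitters' processing notes). The RMA version and settings and the genome build were not given in the sources used here. RMA equalises the arrays' distributions and compresses low values. The 2 deposited tables of 24679 probe sets differed by at most 0.005 intensity units, and the series value table was used. Log2 was taken with no pseudocount or filter. Of the probe sets, 21354 had 1 gene symbol in the platform annotation, 1275 had several and 2050 were not listed, and the brightest per symbol gave 19751 genes.

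Pdpn KO was compared with WT in limma 3.58.1 under R 4.3.3 (lmFit and eBayes, two-sided; p-values were adjusted by Benjamini-Hochberg over the 19751 genes, with a threshold of 0.05). The fit was tested on simulated data. The number of arrays limits the precision. Named were all members, some of the measured receptors and other ligands, which the rule allowed without requiring, the 2 brightest genes and the 2 with the smallest p of pathway lists (1 for markers), and the 3 genes most like the most variable member, besides Pdpn, Xist, Eif2s3y, the depletion targets Ptprc and Pecam1, and Col1a1. Cxcl12 was named as the stroma marker with the smallest p after Pdpn. Members and lists were chosen with earlier results of these data known. The alternatives were the other table, quantile normalisation, median centring, a trended robust prior, removal of the dimmer 25% or 50% of genes, the mean of probe sets, a replicate block, each array left out, a test on each gene alone and, chosen after seeing the data, the other probe sets of Ccl19 and Ccl25. Figures were drawn with matplotlib 3.10.9.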

Additional observations from a re-analysis of the deposited data

How the results depend on the processing

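No CC chemokine passed under quantile normalisation, median centring, the second deposited table, either filter on dim genes, the trended robust prior, the mean of probe sets, the replicate block or a test on each gene alone. With the replicate number as a block, 0 passed, 4 had an unadjusted p under 0.05, against 8.49% of all genes, and Ccl7 had the smallest limma adjusted p, 0.121; with each gene alone 1 had an unadjusted p under 0.05, against 3.10% of all genes. The block moved the calls over all genes to 34, against 2 without it. Deviations of same-numbered arrays from their genotype means correlated with r = 0.58 across all genes and 0.87 across the 9. Across genes, arrays of the same number and different genotypes correlated with 0.996 for either number, against 0.993 for the 2 Pdpn KO and 0.994 for the 2 WT arrays. Genes are not independent replicates. The labels give the arrays no more than a shared number, so no pairing was assumed. The filters kept 8 and 5 of the 9. With 1 array left out, the median log2 difference ran from -0.14 to 0.28. In those fits the lone array of a genotype is assumed to vary like the others, so only effect sizes are given. The range with 1 array left out included both signs for Ccl2 (-0.14 to 0.92), Ccl5 (-0.093 to 0.23), Ccl11 (-0.33 to 0.036), Ccl17 (-0.31 to 0.60), Ccl19 (-0.56 to 0.28) and Ccl20 (-0.052 to 0.51), and 1 sign for Ccl7 (0.16 to 1.05), Ccl8 (-0.13 to -0.09) and Ccl25 (-0.38 to -0.09). Without Pdpn KO replicate 2, the array with the female pattern, Ccl5 had -0.09, Ccl8 -0.11, Ccl11 -0.33, Ccl19 -0.56 and Ccl25 -0.16. The Ccl19 probe set 10512372 gave 0.075, against -0.14 for the brightest. The cause of these changes was not tested.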
